A study of Mus musculus with 8 samples.

Results

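The genes described are 10 regulators of blood vessel growth and of the vessel lining: the growth factors Vegfa and Vegfb, their receptors Kdr and Flt1, the angiopoietins Angpt1 and Angpt2 with their receptor Tek, the peptide Apln with its receptor Aplnr, and the endothelial cadherin Cdh5. They were chosen by name, each through a probe set that the platform annotation ties to that symbol alone, and all 10 were found among the 19938 genes tested. Every one of them had 1 such probe set. Expression was measured with 8 Affymetrix arrays, each hybridised with RNA from gastrocnemius, a calf muscle of mainly fast fibres. The samples were 4 from Hdac5 KO mice and 4 from wild type (WT) littermates, all 30 weeks old, on low-fat chow and with no further treatment. The labels state neither the strain, the sex nor the deleted part of Hdac5, and nothing in them assigns the samples to separate mice. The p-values thus rest on a spread between samples that may be technical. The study asked what part the histone deacetylase HDAC5 plays in Il6 transcription and in genes that IL-6 regulates.

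Skeletal muscle fibres release VEGF-A, which acts on the receptor KDR (VEGFR2) of neighbouring capillary endothelial cells and keeps capillaries matched to the fibres. The angiopoietin system then sets how stable a vessel is, with ANGPT1 from cells around the vessel activating the receptor TEK (TIE2) and ANGPT2 from the endothelium modulating that signal. HDAC5 is a class IIa deacetylase that has no DNA-binding domain of its own. MEF2 transcription factors bring it to genes, and in cultured endothelial cells it has been described as a repressor of vessel sprouting.

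None of the 10 genes passed the test of a difference between the genotypes. In limma, with p-values adjusted by the Benjamini-Hochberg method over all genes, 0 of the 10 had an adjusted p under 0.05, where 0.0652% of all genes (13) did, 0.0401% higher and 0.0251% lower. At an unadjusted p under 0.05, 1 of the 10 was lower in Hdac5 KO muscle (Angpt1) and 0 were higher, where 7.90% of all genes lay under that p, 4.72% higher and 3.18% lower. In 0 of the 10 did the samples of the genotypes separate without overlap, which 4.90% of all genes did, 2.91% higher and 1.99% lower. The median difference of the 10 genes was -0.02 on the log2 scale, against 0.0030 for all genes, with 4 genes higher and 6 lower on the mean. Differences are Hdac5 KO minus WT throughout, and SE is the moderated standard error of limma.

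The targeted gene bore out the labels. Hdac5 was at 8.32, 8.31, 8.31 and 8.39 (log2 signal) in the 4 Hdac5 KO samples, against 9.94, 9.76, 9.83 and 9.80 in the 4 WT samples, a fall of 64.6% (limma adjusted p = 1.74e-07). The signal left in Hdac5 KO samples was above the array medians (7.69 to 7.77), and whether it is transcript or background was not tested. Muscle fibre markers were near the top of the signal range in both genotypes: Acta1, Ckm and Atp2a1 had mean log2 signals of 14.60, 14.47 and 14.62 in Hdac5 KO muscle and 14.64, 14.49 and 14.64 in WT muscle. Hdac5 KO sample 1 and WT sample 4 had the extreme scores on principal component 1 over all genes (-16.5 and 18.8).

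Sequences just before the transcription start are shown for Vegfa and for the receptors Kdr and Flt1, the ligand and receptors of the VEGF-A system, because HDAC5 reaches DNA through other factors and the letters show which common motifs stand there. Each is the 250 bases before a RefSeq start in mouse build GRCm38.p6, on the minus strand: chr17:46032378-46032627 for Vegfa, chr5:75978456-75978705 for Kdr and chr5:147726012-147726261 for Flt1. RefSeq windows were matched for 6 of the 10 genes, with 7 windows in all. Capitals mark the GC box (GGGCGG), the cyclic AMP response element (TGACGTCA), the TATA box (TATAAA) and the hypoxia response core (ACGTG or GCGTG), each searched on both strands.
Vegfa: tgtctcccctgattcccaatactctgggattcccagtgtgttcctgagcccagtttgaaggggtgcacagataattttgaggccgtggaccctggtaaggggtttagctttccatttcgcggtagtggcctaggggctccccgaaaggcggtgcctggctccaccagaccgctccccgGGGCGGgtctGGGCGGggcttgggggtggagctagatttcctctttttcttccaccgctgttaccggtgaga
Kdr: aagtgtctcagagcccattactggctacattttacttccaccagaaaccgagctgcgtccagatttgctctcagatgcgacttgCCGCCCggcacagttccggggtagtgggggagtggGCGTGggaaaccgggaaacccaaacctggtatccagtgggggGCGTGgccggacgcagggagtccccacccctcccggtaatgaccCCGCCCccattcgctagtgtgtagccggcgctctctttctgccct
Flt1: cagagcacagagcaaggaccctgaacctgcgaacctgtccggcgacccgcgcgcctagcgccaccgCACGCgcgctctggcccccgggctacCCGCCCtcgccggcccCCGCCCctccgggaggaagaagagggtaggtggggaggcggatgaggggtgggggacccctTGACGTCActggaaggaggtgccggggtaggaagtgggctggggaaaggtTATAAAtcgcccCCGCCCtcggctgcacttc

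The Vegfa window shown held the GC box at 2 places, 72 to 67 and 62 to 57 bases before the start. Another Vegfa window, not shown, held both hypoxia cores, GCGTG 218 to 214 and ACGTG 211 to 207 bases before its start. It also held the GC box, 158 to 153 bases before that start. In the Kdr window the GC box stood at 2 places on the opposite strand and the hypoxia core GCGTG at 2 places. The Flt1 window held a full cyclic AMP response element 81 to 74 bases before the start and a TATA box 31 to 26 bases before it, besides the GC box at 3 places and GCGTG at 1. A MEF2 consensus was in 0 of the 7 windows, and 0.508% of all 32851 windows of the same length hold one. It was searched only in a strict form that begins with CTA, ends with TAG and has only A or T between, and looser forms were not searched. TGACGTCA was in 1.55% of all windows, TATAAA in 12.4%, GGGCGG in 32.7%, ACGTG in 16.6% and GCGTG in 28.2%. None of the motif hits marked in capitals overlapped another. These matches describe letters in a short window and say nothing of which factors bind there.

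**Figure D1:**
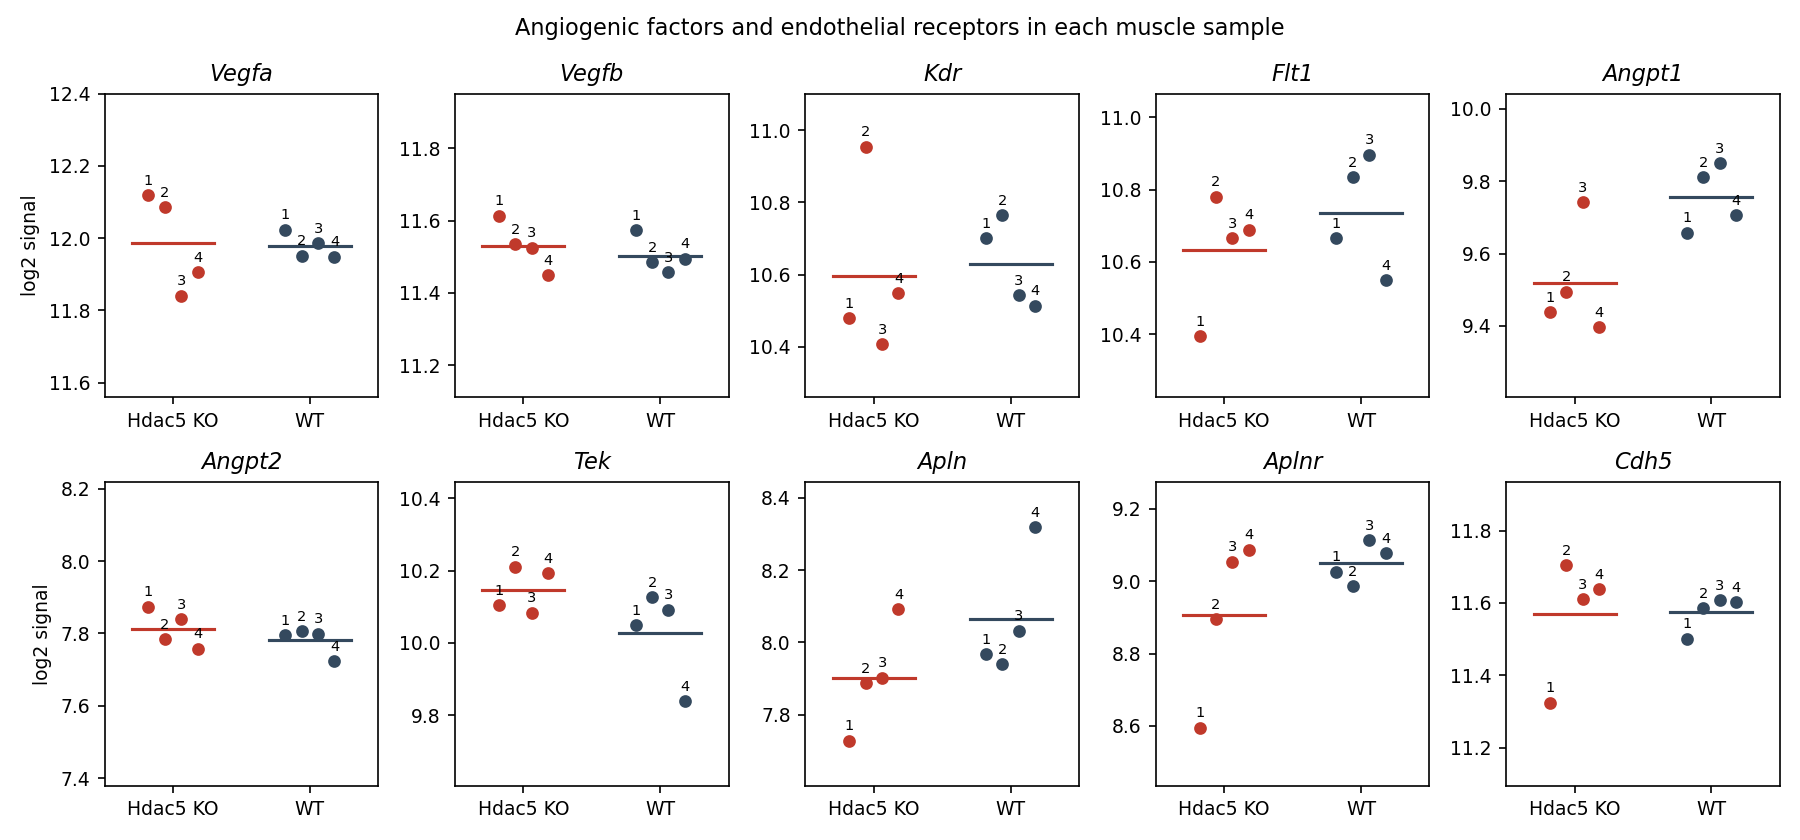
Log2 signal of the 10 genes in each sample, 1 panel per gene, with Hdac5 KO samples in red on the left and WT samples in blue on the right. Numbers are sample numbers, horizontal lines are group means, and every panel spans the same height on the log2 scale. In each panel the samples of the genotypes overlap, and Angpt1 comes closest to separating them.

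The VEGF ligands were near equal in the genotypes. Vegfa, the main growth signal of capillaries, had log2 signals of 12.12, 12.09, 11.84 and 11.91 in the 4 Hdac5 KO samples, against 12.02, 11.95, 11.99 and 11.95 in the 4 WT samples. Hdac5 KO samples 1 and 2 lay above all WT samples and samples 3 and 4 below them, so the means nearly coincided at 11.99 ± 0.14 and 11.98 ± 0.03 (SD, n = 4 each). The difference was 0.01 (SE 0.070), and its 95% interval corresponds to a Hdac5 KO signal between 0.906 and 1.12 of the WT signal (limma adjusted p = 0.985). The sign of so small a difference turned without Hdac5 KO sample 1 or 2.

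Vegfb, a ligand of FLT1 that is abundant in oxidative muscle and heart, had log2 signals of 11.61, 11.53, 11.53 and 11.45 in Hdac5 KO samples, against 11.57, 11.49, 11.46 and 11.49 in WT samples. The lowest of all 8 values was in Hdac5 KO sample 4, and the groups overlapped over most of their range. The difference was 0.03 (SE 0.058, limma adjusted p = 0.940), with an interval of 0.934 to 1.11 for the ratio of Hdac5 KO to WT signal. Its spread between samples of a genotype was small, at an SD of 0.059 against a median of 0.10 over all genes.

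The VEGF receptors varied more between samples than the ligands. Kdr, the receptor that carries most of the VEGF-A signal, had log2 signals of 10.48, 10.95, 10.41 and 10.55 in Hdac5 KO samples, against 10.70, 10.76, 10.54 and 10.51 in WT samples. Hdac5 KO sample 2 was the highest of the 8 and Hdac5 KO sample 3 the lowest. The pooled SD of 0.19 lay at the 94.0th percentile of all genes. The difference was -0.03 (SE 0.109, limma adjusted p = 0.964), and the interval of the ratio ran from 0.83 to 1.15. Without Hdac5 KO sample 2 the difference was -0.15, so that sample alone moved the mean by more than the difference itself.

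Flt1, the VEGFR1 receptor that binds VEGF-A tightly and limits its action on KDR, had log2 signals of 10.39, 10.78, 10.67 and 10.69 in Hdac5 KO samples, against 10.67, 10.84, 10.90 and 10.55 in WT samples. The lowest value was in Hdac5 KO sample 1 and the next lowest in WT sample 4. The difference was -0.10 (SE 0.096, limma adjusted p = 0.848), and it was -0.03 without Hdac5 KO sample 1, -0.05 without WT sample 3 and -0.17 without WT sample 4. Set against Vegfa within each sample, Flt1 gave no separation either. The Vegfa minus Flt1 difference ran from 1.18 to 1.72 in Hdac5 KO samples and from 1.09 to 1.40 in WT samples, a scale whose zero has no meaning because probe sets differ in brightness.

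Angpt1 was the member nearest to a difference. This agonist of TEK, made by mural and other perivascular cells, had log2 signals of 9.44, 9.49, 9.74 and 9.40 in Hdac5 KO samples, against 9.66, 9.81, 9.85 and 9.71 in WT samples. Hdac5 KO samples 1, 2 and 4 lay below every WT sample, while Hdac5 KO sample 3 lay above WT samples 1 and 4. The means were 9.52 ± 0.16 and 9.76 ± 0.09 (SD, n = 4 each), a signal 15.2% lower in Hdac5 KO muscle (difference -0.24, SE 0.081, 95% interval -0.41 to -0.06). The unadjusted p was 0.0122 in limma, rank 529 of 19938 genes, and the adjusted p was 0.459. Over the 16 alternatives the adjusted p ran from 0.211 to 0.752 and the sign stayed negative.

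Angpt2, the angiopoietin that endothelial cells store and release, had log2 signals of 7.87, 7.78, 7.84 and 7.76 in Hdac5 KO samples, against 7.79, 7.81, 7.80 and 7.72 in WT samples. All 8 values lay within a narrow band, and the pooled SD of 0.046 was at the 4.53rd percentile of all genes. The difference was 0.03 (SE 0.055, limma adjusted p = 0.927). Its signal was at percentile 44.8 of all genes.

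The balance between the angiopoietins, taken as Angpt2 minus Angpt1 within each sample, was -1.56, -1.71, -1.90 and -1.64 in Hdac5 KO samples, against -1.86, -2.004, -2.05 and -1.98 in WT samples. Hdac5 KO samples 1, 2 and 4 were above all WT samples, and Hdac5 KO sample 3 was below WT sample 1. The means differed by 0.27, nearly all of it from Angpt1. This contrast is a description with no test.

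Tek, the receptor for both angiopoietins, had log2 signals of 10.10, 10.21, 10.08 and 10.19 in Hdac5 KO samples, against 10.05, 10.13, 10.09 and 9.84 in WT samples. WT sample 4 was well below the other 7, which lay close together and overlapped. The difference was 0.12 (SE 0.071, limma adjusted p = 0.736), and it was 0.06 without WT sample 4. Relative to the mean of the 25 endothelial markers in the same sample, Tek was at 0.89, 0.80, 0.76 and 0.81 in Hdac5 KO samples, against 0.72, 0.70, 0.73 and 0.61 in WT samples. On that scale the genotypes did not overlap, by a narrow gap between 0.76 in Hdac5 KO sample 3 and 0.73 in WT sample 3. The means were 0.13 apart. How many of all genes would separate on that scale was not counted. Tek is 1 of 6 genes set against the marker mean, and its contrast was not tested.

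**Figure D2:**
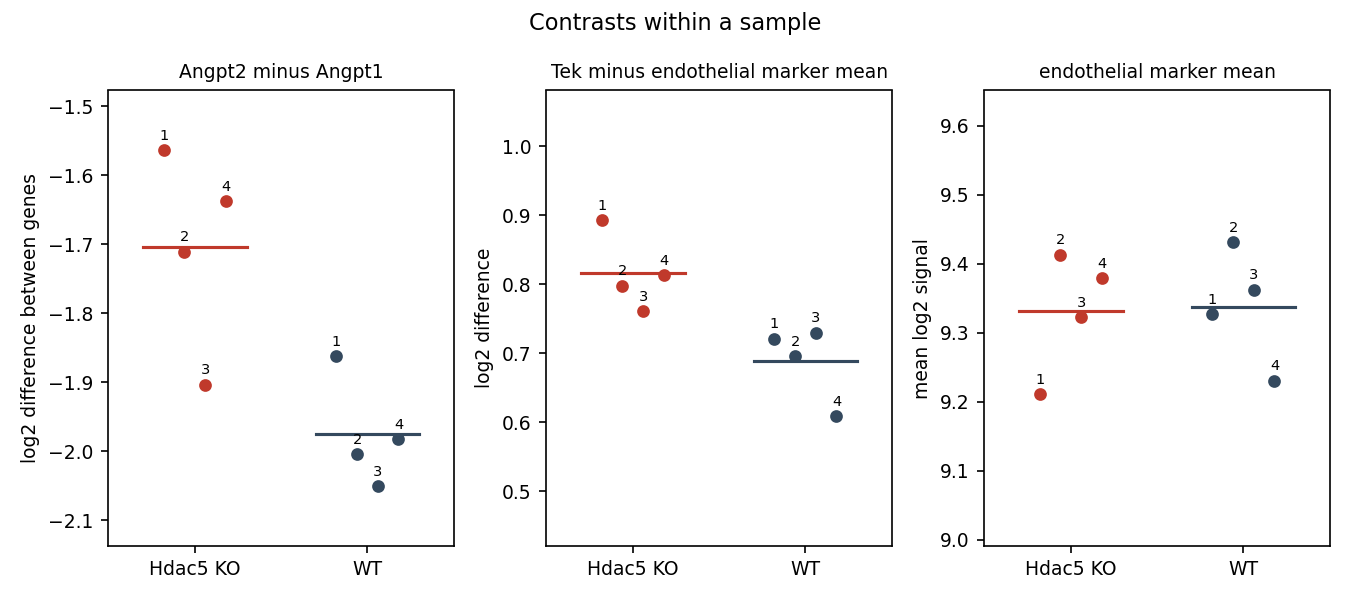
Descriptions within a sample on the log2 scale: Angpt2 minus Angpt1 on the left, Tek minus the mean of 25 endothelial markers in the middle, and that marker mean itself on the right, with Hdac5 KO samples in red and WT samples in blue. Points carry sample numbers and lines are group means. The marker mean overlaps fully and Angpt2 minus Angpt1 overlaps through Hdac5 KO sample 3. Tek relative to the markers does not overlap, by a narrow gap that was not tested.

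Apln encodes apelin, a peptide released by sprouting endothelial cells and by working muscle. It had log2 signals of 7.73, 7.89, 7.90 and 8.09 in Hdac5 KO samples, against 7.97, 7.94, 8.03 and 8.32 in WT samples. The lowest value was in Hdac5 KO sample 1 and the highest in WT sample 4, the samples with the extreme scores on principal component 1. The difference was -0.16 (SE 0.095, limma adjusted p = 0.736). It was -0.10 without Hdac5 KO sample 1, -0.08 without WT sample 4 and -0.02 without both, the last an alternative chosen after seeing the data.

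Aplnr, the apelin receptor, had log2 signals of 8.59, 8.89, 9.05 and 9.09 in Hdac5 KO samples, against 9.03, 8.99, 9.11 and 9.08 in WT samples. Hdac5 KO samples 1 and 2 lay below the WT samples and samples 3 and 4 among them. The difference was -0.14 (SE 0.096, limma adjusted p = 0.777), and it was -0.04 without Hdac5 KO sample 1. Apln minus Aplnr within a sample ran from -1.15 to -0.87 in Hdac5 KO samples and from -1.08 to -0.76 in WT samples, with means 0.02 apart.

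Cdh5, the VE-cadherin that joins endothelial cells to each other and is largely restricted to them, had log2 signals of 11.32, 11.70, 11.61 and 11.64 in Hdac5 KO samples, against 11.50, 11.58, 11.61 and 11.60 in WT samples. Hdac5 KO sample 1 was the lowest, and the other 7 lay between 11.50 and 11.70. The difference was -0.0048 (SE 0.080, limma adjusted p = 0.996), with an interval of 0.883 to 1.12 for the ratio of Hdac5 KO to WT signal. In whole muscle, the number of endothelial cells and the RNA per endothelial cell cannot be told apart.

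**Figure D3:**
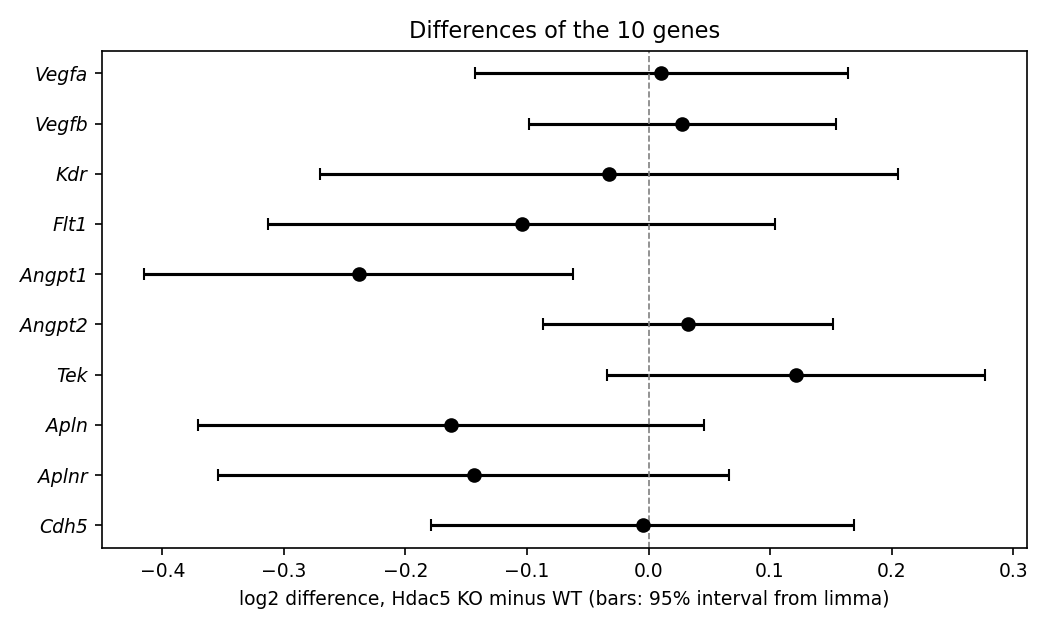
Log2 difference of each gene, Hdac5 KO minus WT, with bars for the 95% interval from limma and a dashed line at no difference. The interval of Angpt1 (-0.41 to -0.06) leaves out 0 before adjustment over all genes, and the other 9 intervals hold 0.

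Hdac5 KO sample 1 was the lowest of the 8 samples for 4 genes, Flt1, Apln, Aplnr and Cdh5, and the highest for 3, Vegfa, Vegfb and Angpt2. The mean of the 25 endothelial markers, which holds none of the 10 genes, was also lowest in that sample, at 9.21, against 9.32 to 9.41 in the other Hdac5 KO samples and 9.23 to 9.43 in WT samples. WT sample 4, at 9.23, was the lowest WT sample on that mean and the lowest of all for Tek and Angpt2. The part of these samples' endothelial levels in the values of Aplnr, Flt1 and Tek was not tested.

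**Figure D4:**
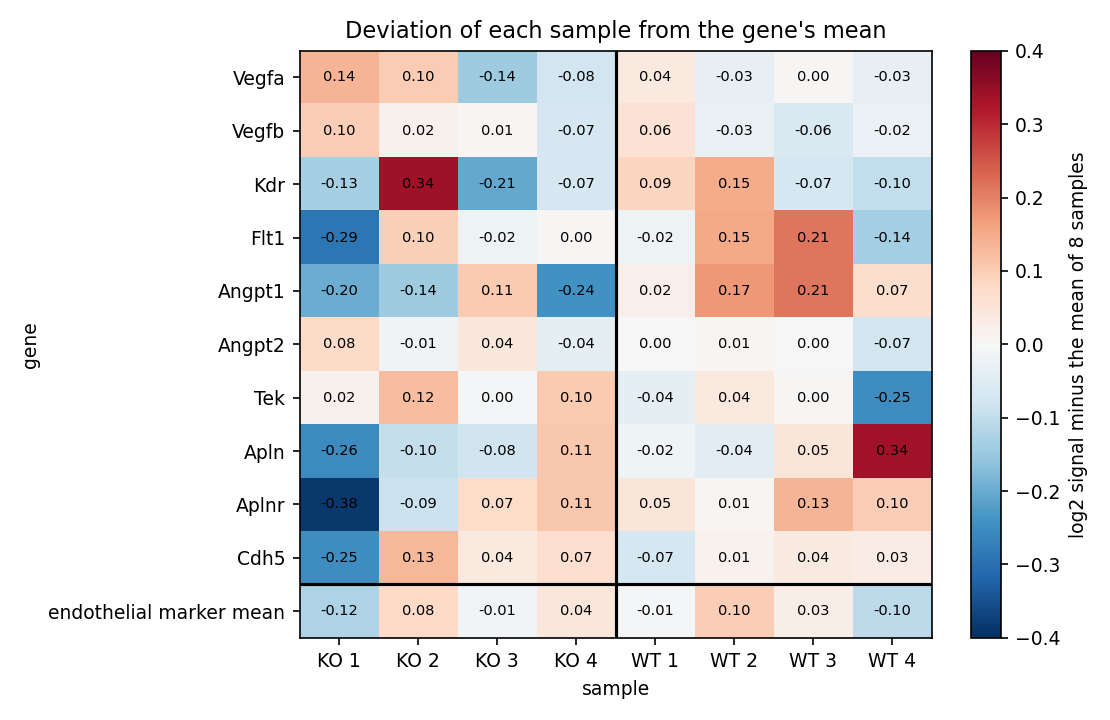
Deviation of each sample from the gene's mean over 8 samples, on the log2 scale, for the 10 genes and, in the last row, for the mean of 25 endothelial markers. Columns are the Hdac5 KO samples and then the WT samples, and red is above and blue below the mean. Hdac5 KO sample 1 is low for Flt1, Angpt1, Apln, Aplnr and Cdh5, and WT sample 4 is low for Tek and high for Apln.

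The genes whose values followed Cdh5 most closely over the 8 samples, among 9968 genes brighter than the median gene, were Pfn3, Pecam1, Vsig8, Fabp3 and Ubr3, with Pearson's r of 0.974, 0.944, 0.937, 0.937 and 0.927 and Spearman's rho of 0.929, 0.690, 0.857, 0.905 and 0.905. Pecam1 encodes the endothelial adhesion molecule CD31. Of the other members, Aplnr ranked 139 (r = 0.723) and Flt1 165 (r = 0.705), while Kdr ranked 1078 (r = 0.389) and Tek 2196 (r = 0.163). Hdac5 KO sample 1 and WT sample 1 were the samples farthest from the median of Cdh5. Without them the r of Pfn3, Pecam1, Vsig8, Fabp3 and Ubr3 was 0.936, 0.760, 0.527, 0.761 and 0.729. Among the members it was then 0.055 for Flt1, -0.64 for Aplnr, 0.622 for Kdr and 0.535 for Tek. For Vegfa the closest genes were Taf4b, Erh, Cdc42se2, Vps4a and Armc1, with r of 0.963, 0.952, 0.950, 0.941 and 0.938 and rho of 0.905, 0.976, 0.905, 0.833 and 0.976. These are descriptions of 8 arrays that share their processing, picked as the highest of many.

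In the rest of the VEGF family, 0 of 6 genes passed the adjusted test in either direction. Flt4, the receptor of lymphatic vessels, and its ligands Vegfc and Vegfd had mean differences of 0.18, 0.16 and 0.13 (unadjusted p = 0.0363, 0.0473 and 0.0746 in limma). Without WT sample 4 the difference of Flt4 was 0.11 and that of Vegfc 0.10. Vegfc had log2 signals of 8.08, 8.12, 8.08 and 8.25 in Hdac5 KO samples, against 7.96, 8.05, 8.08 and 7.81 in WT samples, so that its separation rested on a gap smaller than the second decimal. It was 1 of the 6 that was higher without overlap, where 2.91% of all genes were. The co-receptors Nrp1 and Nrp2 differed by 0.02 and 0.0046, signs that turned under quantile normalization (-0.0063 and -0.022). The list's median was 0.08, against 0.0030 over all genes.

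In the angiopoietin and Tie pathway, 0 of 4 other genes passed. Svep1, a large extracellular protein that binds the related receptor TIE1, had log2 signals of 9.51, 9.28, 9.26 and 9.26 in Hdac5 KO samples, against 9.04, 9.24, 9.04 and 8.87 in WT samples. These did not overlap, and the difference was 0.28 (SE 0.085, limma adjusted p = 0.378). Svep1 was 1 of the 4 that was higher without overlap, where 2.91% of all genes were. Tie1 itself and Ptprb, the phosphatase that dampens TEK, each differed by -0.06, and Angpt4 by 0.09. The list's median was 0.01. Apela, the other ligand of the apelin receptor, was a dim gene (signal at percentile 3.23) and differed by -0.03.

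Tip cell and Notch genes, which act downstream of VEGF-A in sprouting vessels, had a median of 0.01, and 0 of 11 passed. Esm1, a proteoglycan gene of endothelial tip cells that VEGF-A induces, had log2 signals of 7.31, 7.49, 7.16 and 7.47 in Hdac5 KO samples, against 7.03, 7.07, 6.97 and 6.90 in WT samples. The genotypes did not overlap, and the difference was 0.37 (SE 0.078, unadjusted p = 0.000532 and adjusted p = 0.143 in limma), a ratio of 1.29. Hes1, a Notch target, did not overlap either, with a difference of 0.27 (SE 0.066, adjusted p = 0.237), and Hey2 differed by 0.21. Plxnd1 differed by -0.07 and the Notch ligand Jag1 by -0.04. Higher at an unadjusted p under 0.05 were 3 of the 11, where 4.72% of all genes were, and 0 were lower. Higher without overlap were 2 of the 11, where 2.91% of all genes were, and 0 were lower.

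Genes that control Vegfa in muscle, the hypoxia factors and the PGC-1 pathway, had a median of 0.02, with 0 of 13 passing and 0 under an unadjusted p of 0.05. Epas1, the hypoxia factor HIF-2 alpha, differed by 0.10, Vhl, which marks hypoxia factors for breakdown, by 0.21, and Arnt, their partner, by 0.13 (unadjusted p = 0.126, 0.0608 and 0.0822 in limma). WT sample 4 was the lowest of the 8 samples for Vhl and for Arnt, and without it their differences were 0.096 and 0.067. The bright members Egln1, an oxygen sensor, and Bnip3, a hypoxia target, differed by 0.02 and -0.07.

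The genes linked to HDAC5 in cultured endothelial cells are Fgf2 and Slit2, described there as repressed by it, Klf2 and Nos3, which respond to blood flow, and Nr4a1, which responds to VEGF. Of the 5, 0 passed, and the list's median was 0.07. Fgf2, an angiogenic growth factor, had log2 signals of 8.92, 8.83, 9.16 and 9.01 in Hdac5 KO samples, against 8.90, 8.86, 8.77 and 8.73 in WT samples. Hdac5 KO sample 2 lay among the WT samples, and the difference was 0.17 (SE 0.077, limma adjusted p = 0.637), or 0.10 without Hdac5 KO sample 3. Slit2, a guidance factor, was dim (signal at percentile 14.5) and differed by -0.05. Nr4a1 differed by 0.26 (SE 0.097, limma adjusted p = 0.508), or 0.16 without Hdac5 KO sample 1, Klf2 by 0.07 and Nos3 by 0.02.

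Of 25 endothelial markers, 0 passed, 10 were higher and 15 lower on the mean, and the median was -0.01. The split hung on single samples: 16 were higher and 9 lower without Hdac5 KO sample 1, and 6 higher and 19 lower without WT sample 4. Pecam1 differed by -0.03, Ptprb by -0.06 and the sphingosine phosphate receptor S1pr1 by -0.08, while Emcn differed by 0.15, Eng by 0.13 (0.077 without WT sample 4) and Plvap, a protein of endothelial diaphragms, by 0.20 (limma adjusted p = 0.630). Of the 5 lymphatic markers measured, 0 passed and the median was 0.15. Prox1, the lymphatic identity factor, differed by -0.18 (-0.12 without WT sample 3) and Pdpn by 0.15, and Lyve1, which macrophages also express, by 0.50 (limma adjusted p = 0.192).

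Mural cells, the pericytes and smooth muscle around vessels, are a source of Angpt1. Of their 12 markers, 4 were higher on the mean and 8 were lower, Kcnj8 and Cspg4 among the lower. The 4 were the smooth muscle contractile genes Acta2, Myh11, Cnn1 and Tagln, with differences of 0.46, 0.22, 0.20 and 0.14. Without WT sample 3, 6 were higher and 6 lower. Of the 12 markers 0 passed in limma, and at an unadjusted p under 0.05 there were 2 higher and 3 lower, where 4.72% of all genes were higher and 3.18% lower. Without overlap there were 1 higher and 2 lower, where 2.91% of all genes were higher and 1.99% lower. The potassium channel Kcnj8, a pericyte gene, had log2 signals of 9.63, 9.87, 9.39 and 9.75 in Hdac5 KO samples, against 10.09, 10.15, 10.23 and 10.01 in WT samples, with no overlap (difference -0.46, SE 0.093, adjusted p = 0.131). Cspg4, the pericyte proteoglycan NG2, did not overlap either and differed by -0.15 (limma adjusted p = 0.515). Acta2, the smooth muscle actin, had log2 signals of 10.62, 10.83, 10.78 and 10.96 in Hdac5 KO samples, against 10.41, 10.60, 10.17 and 10.19 in WT samples, again with no overlap (difference 0.46, SE 0.101, adjusted p = 0.176). Abcc9, the channel partner of Kcnj8 that fibres also express, differed by -0.10 and the pericyte gene Rgs5 by -0.01. The mean of the 12 markers, in which higher and lower genes offset each other, ran from 9.42 to 9.64 in Hdac5 KO samples. In WT samples it ran from 9.46 to 9.60. The part of mural cells in the value of Angpt1 was not tested. Signals that the endothelium sends to mural cells had a median of 0.05 over 5 genes, 0 of which passed. Pdgfb differed by 0.18 (unadjusted p = 0.0125), Tgfb1 by 0.15 (0.082 without WT sample 4), Hbegf by 0.05 and Pdgfa by -0.02.

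Markers of macrophages and fibroblasts lay mostly higher in Hdac5 KO muscle on the mean, and their part in the values of the 10 genes was not tested. Of 15 macrophage markers, 13 were higher, 0 passed and 9 were higher at an unadjusted p under 0.05, where 4.72% of all genes were. Their mean ran from 8.29 to 8.57 in Hdac5 KO samples and from 8.08 to 8.36 in WT samples, with Lyz2 at a difference of 0.51, Adgre1 at 0.40 and Mrc1 at 0.38. All 11 fibroblast markers measured were higher on the mean (10 of 11 with quantile normalization and 9 of 11 with array weights), and 0 passed. Their mean ran from 10.43 to 10.74 in Hdac5 KO samples and from 10.33 to 10.61 in WT samples. Col3a1 differed by 0.44, Lum by 0.33 (0.19 without Hdac5 KO sample 3), Pdgfra by 0.19, Gsn by 0.09, Dcn by 0.08 and Col1a2 by 0.05. All 12 muscle fibre markers were lower on the mean, but 6 were lower and 6 higher with quantile normalization. Their median was -0.03 and 0 passed. In 2, Myh7 among them, Hdac5 KO samples lay below WT samples without overlap, which 1.99% of all genes did. Myh7, the slow myosin, differed by -0.76 (limma adjusted p = 0.266), and by -0.90 to -0.53 when 1 sample was left out. Ttn and Des differed by -0.07 and -0.06, Acta1 by -0.04, Ckm by -0.02 and Atp2a1 by -0.01. The signs of Ckm and Atp2a1 turned under quantile normalization (0.0067 and 0.0158). Of the red blood cell markers 2 were measured, Alas2 at -0.08 and Slc4a1 at -0.03, and 0 passed. No marker in these lists was at the bottom of the scale, the dimmest standing at the 31.0th percentile of gene signals. The 12 muscle fibre markers stood at the other end, at percentile 97.1 or above, and compression of their signals there was not tested.

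**Figure D5:**
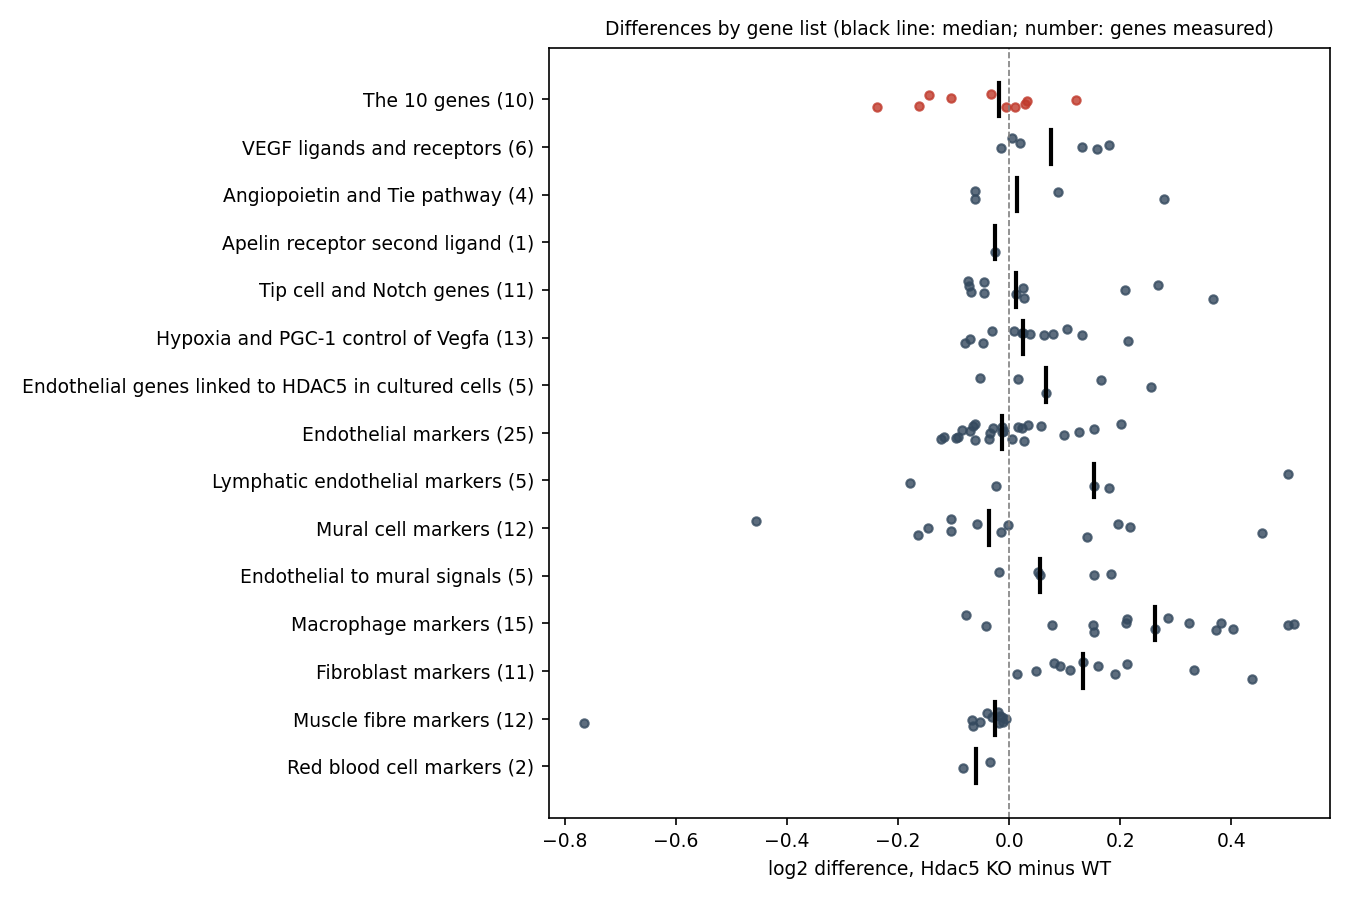
Log2 differences, Hdac5 KO minus WT, of the 10 genes (red, top) and of the genes in each list (blue), 1 point per gene, with a black line at the list's median and the number of genes measured in brackets. Vertical scatter within a list has no meaning. The 10 genes and the 25 endothelial markers centre near 0, while macrophage and fibroblast markers lie mostly to the right.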

How the data were processed

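Gene expression was measured on 8 Affymetrix arrays, 4 Hdac5 KO and 4 WT, grouped by the genotype label. Per the labels, each array took 150 ng of total RNA (integrity number above 8), amplified and labelled with biotin. The deposited values are log2 signals, 1 per probe set, made by the authors with Affymetrix Expression Console 4.0, per the submitters' processing notes. How probes were summarised and normalized is not stated there, and the scale was taken from the range of values. Array medians lay between 7.69 and 7.77. The number of arrays limits the precision.

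Of 35556 probe sets, the 21789 tied to 1 gene symbol were used, and 1621 with several symbols and 12146 with no entry in the platform table were left out. The brightest probe set was kept for each of 999 genes with more than 1. The deposited values were not normalized again. Genotypes were compared over 19938 genes with limma 3.58.1 (lmFit, eBayes) in R 4.3.3, adjusted by Benjamini-Hochberg. The code of the fit was run on simulated data with noise drawn independently for each sample. That run cannot tell how small a difference these arrays would show, because real samples may deviate together over many genes. The members and the 14 gene lists were chosen with earlier results of these data known. Genes named are the 10 members, Hdac5, and from each list the 3 brightest and the 3 of smallest p, plus the 5 genes most like Cdh5 and Vegfa. Nos3, Myh11, Cnn1 and Tagln were named besides, chosen after their values were seen. Promoter windows are RefSeq's, build GRCm38.p6. Alternatives were other normalizations, a filter on dim genes, other variance models, array weights, a block on the sample number and leaving samples out. The numbers were not taken as pairs because the labels do not say that they pair animals. Deviations of samples with the same number had correlations of 0.338, -0.115, -0.153 and 0.340. These cannot decide whether samples were paired, because no correlations between different numbers were set beside them. Plots used matplotlib 3.10.9 in Python 3.11.15.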

Additional observations from a re-analysis of the deposited data

Results flagged for a closer look

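In 7 of 138 groups of 4 samples (69 genes, both genotypes), 1 sample stood farther from the rest than Dixon's 95% critical value allows, and chance flags about 1 in 20 such groups. The only member among them was Angpt2, whose WT sample 4 was at 7.72, against 7.79 to 7.81 in the other WT samples. Hdac5 was at 8.39 in Hdac5 KO sample 4, against 8.31 to 8.32 in the other 3. Svep1 was at 9.51 in Hdac5 KO sample 1, against 9.26 to 9.28 in the other 3, and Dcn at 13.85 in that sample, against 13.78 to 13.79. Pdgfa was at 10.004 in Hdac5 KO sample 3, against 10.21 to 10.23, and Col1a2 at 10.50 in Hdac5 KO sample 2, against 10.81 to 10.84. Ckm was at 14.44 in WT sample 3, against 14.50 to 14.51.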

How the results depend on the processing

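Of the 10 members, 0 passed an adjusted p under 0.05 in any of the 16 alternatives, and the smallest adjusted p was 0.211 (Angpt1 with the replicate block). The number of genes changed over the whole table was 13, and it was 20 with quantile normalization, 36 with dim genes left out, 44 with a trended and robust eBayes, 31 with array weights, 30 with the replicate block, and 5 without both Hdac5 KO sample 1 and WT sample 4, which was added after the data had been seen. Leaving out 1 sample gave 5 to 20 genes: 5 without WT sample 2 or 4, 7 without Hdac5 KO sample 2, 8 without Hdac5 KO sample 1 or WT sample 1, and 20 without Hdac5 KO sample 4. The 122 other list genes held 0 that passed, and 1 with the replicate block, Myh7 (adjusted p = 0.0461). The block changed no other call among members or list genes, and the sample numbers are not stated to pair animals.

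The 15 of 69 differences whose sign turned were all small. Without both Hdac5 KO sample 1 and WT sample 4 the differences were -0.043 for Vegfa, -0.0029 for Vegfb, -0.0065 for Angpt2, 0.086 for Cdh5, 0.036 for Pecam1, 0.028 for Rgs5, -0.022 for Col1a2 and 0.087 for Slc4a1. With array weights they were 0.030 for Cdh5, -0.0039 for Nrp2 and -0.022 for Col1a2. With quantile normalization they were -0.0063 for Nrp1, -0.022 for Nrp2, 0.0158 for Atp2a1 and 0.0067 for Ckm, and with arrays centred on their median -0.0038 for Nrp2. Leaving out 1 sample gave ranges of -0.033 to 0.059 for Vegfa, -8.3e-06 to 0.055 for Vegfb, -0.15 to 0.031 for Kdr, -0.050 to 0.077 for Cdh5, -0.046 to 0.075 for Nrp1, -0.053 to 0.062 for Nrp2, -0.059 to 0.00094 for Apela, -0.086 to 0.048 for Pecam1, -0.065 to 0.040 for Rgs5, -0.050 to 0.035 for Pdgfa and -0.091 to 0.046 for Slc4a1. The cause was not tested. The other 54 of 69 differences kept their sign in every alternative. Leaving out some 1 sample moved 44 of the 69 differences by over 1.5 times, among them 14 of the 37 that were at least 0.1 in size. Each member had 1 probe set, so testing its other probe sets gave no value, and the mean of all probe sets left each member's difference as it was.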
